A study of Mus musculus with 6 samples.

Results

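The genes described here build and handle cholesterol and fatty acids in the cell, and their transcripts were measured in regulatory T cells (Tregs) of 6 mice. They number 30 and were named by symbol: 16 enzymes from mevalonate to cholesterol, 3 genes of sterol sensing, 8 enzymes of fatty acid synthesis and desaturation and 3 genes of cholesterol export and transport. A gene was read from the probe sets that carry its symbol alone, and where it had several, from the one with the highest mean. All 30 were measured, among 18193 genes on the array.

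In the treated group, 3 female NOD mice carried the BDC2.5 T cell receptor transgene, a Foxp3 reporter (Foxp3GFP) and no intact Rag1 gene (RAG1o/o), and had received 37.5 µg of the anti-CD3 antibody KT3 intravenously on each of 5 days from an age of 17 days. In the untreated group, 3 female NOD mice carried the same transgene and reporter with 1 intact Rag1 copy (RAG1+/o) and received nothing. Spleen cells that were CD4+ and GFP+ and lacked B220, CD8a and CD11b/c were sorted, from treated mice aged 29, 29 and 28 days, given as 12, 12 and 11 days after treatment, and from untreated mice aged 29, 28 and 28 days. Each array held the RNA of 1 mouse. Genotype and antibody differed together and cannot be told apart, and T cells of RAG1o/o mice can carry the transgenic receptor alone. Values are log2 of the deposited intensity, and the number of arrays limits the precision.

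Cells make cholesterol from acetyl-CoA by way of mevalonate, isoprenoid diphosphates, squalene and lanosterol. When sterols run low in the endoplasmic reticulum, the Srebf2 protein is released from Insig proteins, cut, and switches on the genes of this route. The Srebf1 protein acts more on fatty acid genes, while oxysterols activate LXR receptors, which turn on export genes such as Abca1. In T cells the route is known to be raised on activation and growth, and mevalonate metabolism is known to matter for Treg function.

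The promoters of 6 of these genes are shown, 4 of sterol enzymes that were lowest in treated replicate 2, 1 of the sterol sensor Insig1 and 1 of Fasn for comparison. They come from RefSeq (GRCm38.p6) and run from 250 bases before the annotated start to 50 bases from it, 5′ to 3′ on the gene's strand. Capitals mark TCACNCCAC (a sterol regulatory element, bound by Srebf proteins), CCAAT (the NF-Y box), GGGCGG (the Sp1 box) and CACGTG (the E-box), read on both strands, so that ATTGG and CCGCCC are the NF-Y and Sp1 boxes of the opposite strand. Hmgcs1 lies at chr13:119690101-119690400, plus strand, Idi1 at chr13:8885356-8885655, plus strand, Cyp51 at chr5:4104648-4104947, minus strand, Msmo1 at chr8:64733529-64733828, minus strand, Insig1 at chr5:28071162-28071461, plus strand and Fasn at chr11:120824498-120824797, minus strand.
Hmgcs1: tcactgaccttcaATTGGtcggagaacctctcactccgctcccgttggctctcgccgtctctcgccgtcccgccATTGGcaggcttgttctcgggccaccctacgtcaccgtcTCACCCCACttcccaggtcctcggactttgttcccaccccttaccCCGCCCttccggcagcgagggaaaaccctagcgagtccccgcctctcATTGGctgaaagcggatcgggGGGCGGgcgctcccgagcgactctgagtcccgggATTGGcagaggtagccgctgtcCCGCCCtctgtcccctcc
Idi1: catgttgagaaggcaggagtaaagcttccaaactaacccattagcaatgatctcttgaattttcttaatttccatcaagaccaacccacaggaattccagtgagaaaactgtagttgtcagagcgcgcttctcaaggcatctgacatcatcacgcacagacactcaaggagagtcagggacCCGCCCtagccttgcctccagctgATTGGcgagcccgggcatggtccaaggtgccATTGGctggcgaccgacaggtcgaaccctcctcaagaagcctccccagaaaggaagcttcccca
Cyp51: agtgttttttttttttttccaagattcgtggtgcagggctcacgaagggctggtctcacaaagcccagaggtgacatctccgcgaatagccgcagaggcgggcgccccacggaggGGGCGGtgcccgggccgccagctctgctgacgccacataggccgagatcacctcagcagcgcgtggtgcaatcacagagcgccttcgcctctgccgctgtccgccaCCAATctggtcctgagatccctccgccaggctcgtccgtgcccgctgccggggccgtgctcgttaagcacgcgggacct
Msmo1: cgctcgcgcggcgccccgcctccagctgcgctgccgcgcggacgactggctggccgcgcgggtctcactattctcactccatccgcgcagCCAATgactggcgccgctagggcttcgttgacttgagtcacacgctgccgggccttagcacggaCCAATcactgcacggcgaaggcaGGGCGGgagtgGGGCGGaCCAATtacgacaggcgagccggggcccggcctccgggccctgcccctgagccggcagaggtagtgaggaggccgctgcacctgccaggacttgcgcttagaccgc
Insig1: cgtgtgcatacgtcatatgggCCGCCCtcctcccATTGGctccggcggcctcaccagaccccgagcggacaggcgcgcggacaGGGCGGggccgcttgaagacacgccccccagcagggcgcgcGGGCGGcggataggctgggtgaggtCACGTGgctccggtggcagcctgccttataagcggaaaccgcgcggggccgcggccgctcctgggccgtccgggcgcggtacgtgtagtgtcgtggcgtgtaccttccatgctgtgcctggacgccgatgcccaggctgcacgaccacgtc
Fasn: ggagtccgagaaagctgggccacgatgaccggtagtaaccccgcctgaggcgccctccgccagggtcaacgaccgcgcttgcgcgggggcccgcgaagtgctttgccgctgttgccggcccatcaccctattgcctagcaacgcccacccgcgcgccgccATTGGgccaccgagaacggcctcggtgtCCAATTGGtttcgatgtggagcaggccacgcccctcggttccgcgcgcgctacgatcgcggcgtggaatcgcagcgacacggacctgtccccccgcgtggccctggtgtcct

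Of the 30 genes, 22 were in the promoter table, with 27 annotated starts. The NF-Y box was in 18 of the 22, counting a gene where any of its starts held it, and in all 13 of the sterol enzymes in the table. It was in 19 of the 27 promoters, or 70.4%, against 37.4% of 32851 promoters of the same length. The Sp1 box was in 20 of the 27 promoters, or 74.1%, against 35.7% of all promoters, and in 12 of the 13 sterol enzymes. The E-box was in 5 of the 27 promoters, or 18.5%, against 7.15% of all promoters. The sterol regulatory element was in 1 of the 27, that of Hmgcs1, at -137 to -129 from the start, where 1.24% of all promoters held one. In Fasn, NF-Y boxes on opposite strands overlap, at -62 to -58 and at -59 to -55. These are letter matches in a short window, the base composition of the windows was not compared, and no binding was measured.

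**Figure D1:**
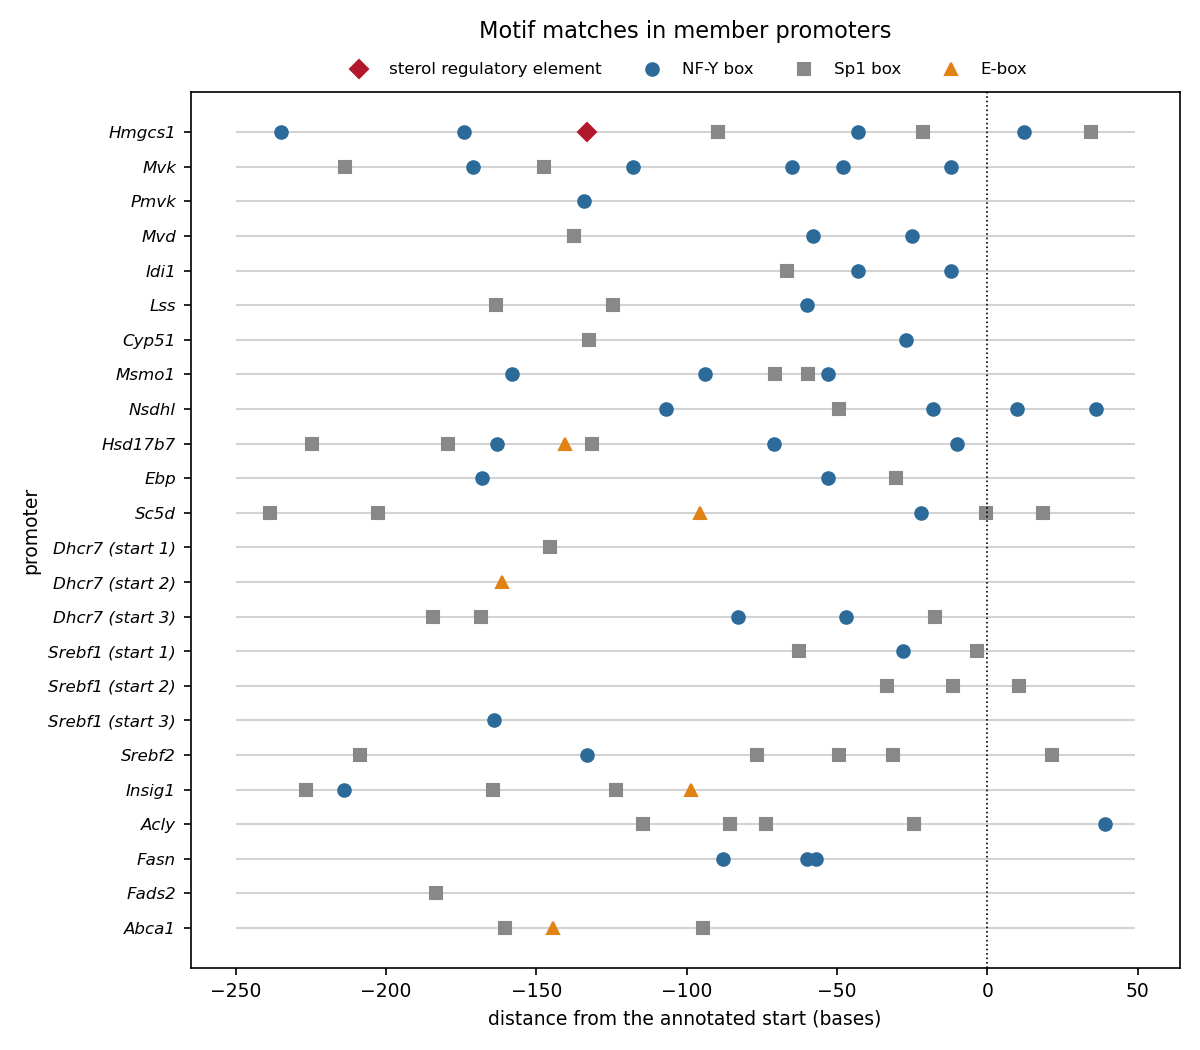
Motif matches in the promoters of the lipid synthesis genes, with distance from the annotated start in bases on the horizontal axis and 1 line per annotated start; symbols mark the 4 motifs. The 24 of 27 promoters with a match are drawn, and the sterol regulatory element is marked once, in Hmgcs1.

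None of the 30 genes differed between treated and untreated Tregs after adjustment for all genes tested. By limma with Benjamini-Hochberg adjustment, 0 were higher and 0 lower at an adjusted p under 0.05, as were 0% of all genes in either direction, and the smallest adjusted p of the 30 was 0.914. Leaving out untreated replicate 3 changed that for 1 gene, Scd1 (adjusted p = 0.0104, limma). At an unadjusted p under 0.05, 2 were higher in treated Tregs, Srebf1 and Acaca, where 1.82% of all genes were, and 2 were lower, Scd1 and Scd2, where 3.17% of all genes were. The treated value lay above the untreated in 18 of 30, beside 58.5% of all genes, and the median difference was 0.06 against 0.05 over all genes. All treated arrays lay above all untreated arrays for 5 of the 30 (Lss, Srebf1, Acly, Acaca and Elovl6), beside 5.61% of all genes, and below them for 3 (Idi1, Scd1 and Scd2), beside 5.24%. Scd1 and Dhcr7 had the largest negative and positive differences of the 30.

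**Figure D2:**
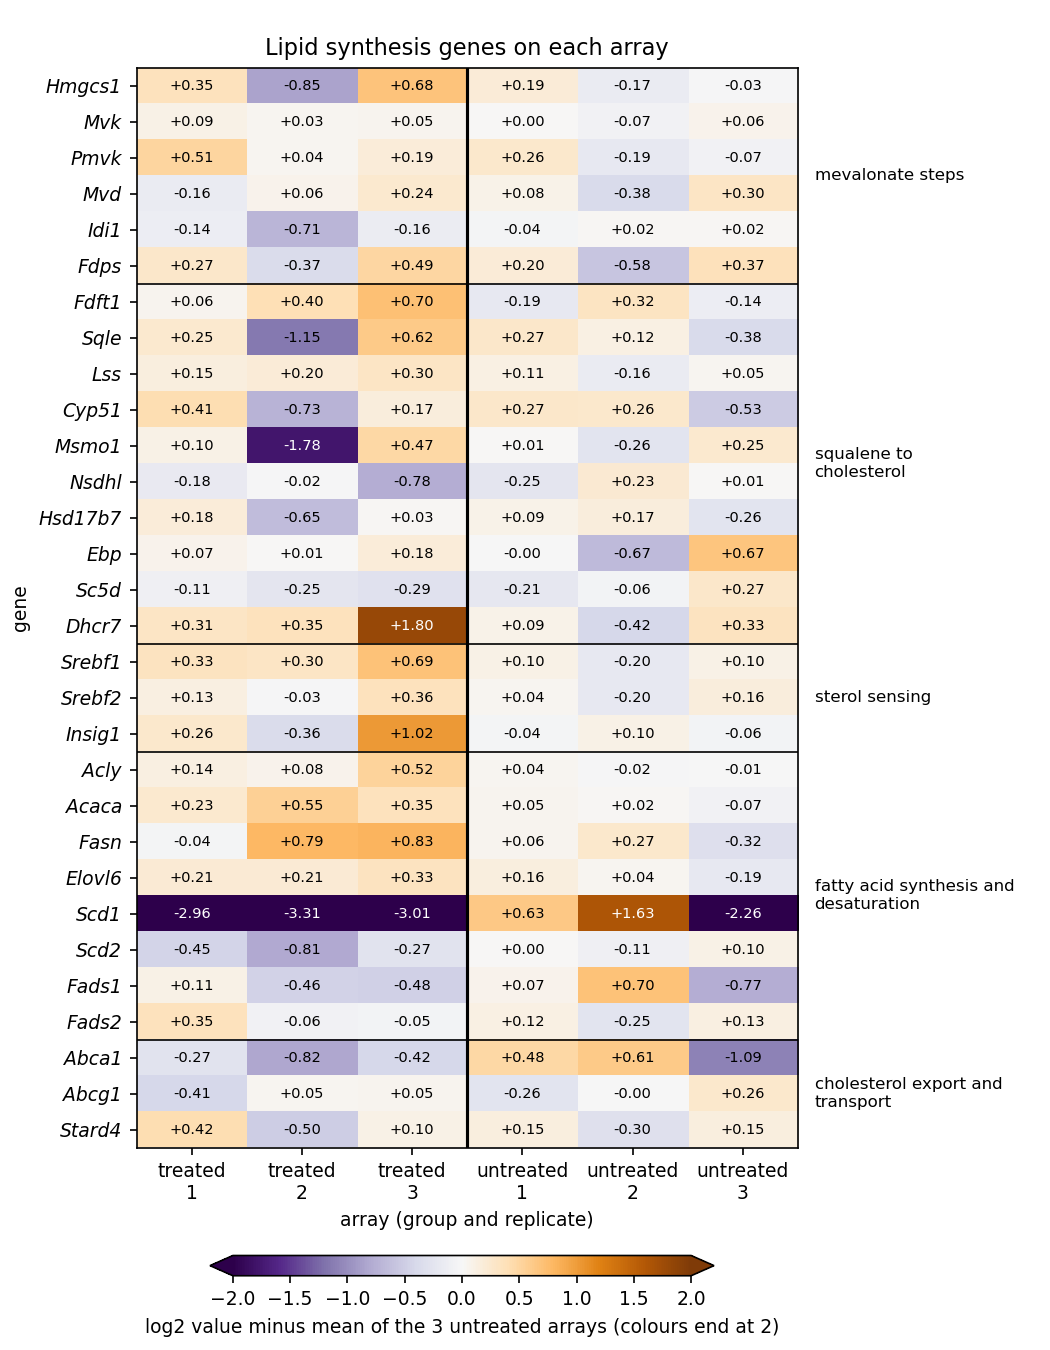
Each of the 30 genes (rows, by role) on each array (columns, treated left of untreated), as the log2 value minus the gene's mean over the 3 untreated arrays; colours end at 2. Scd1 is low on the 3 treated arrays and on untreated replicate 3, and Msmo1, Sqle and Hmgcs1 are low on treated replicate 2.

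Several arrays stood apart from their group. The B cell markers, 10 genes, averaged 6.36, 6.49 and 6.36 in treated replicates 1 to 3, against 9.65, 9.74 and 7.07 in untreated replicates 1 to 3, although B220 was gated out. All 10 had negative differences, with a median of -2.26. Of them 7 had an unadjusted p under 0.05 (limma), where 3.17% of all genes were lower at that threshold. Untreated replicate 3 was also the lowest array for 12 of 15 myeloid, 4 of 6 erythroid and 4 of 4 NK cell markers, beside 13.3% of all genes. Of the 15 myeloid markers, 13 had differences above 0, with a median of 0.77, beside 58.5% of all genes above 0. Without untreated replicate 3 that median was 0.08, against 0.06 over all genes. Among 9 cell division genes treated replicate 2 was the lowest in 6, beside 21.7% of all genes. Of the 9, 1 difference was above 0 and 8 were below, beside 58.5% of all genes above 0. With lower values in treated Tregs, 3 of the 9 had an unadjusted p under 0.05 (limma), where 3.17% of all genes did. The stromal markers averaged 5.82 to 6.29 on all arrays. Foxp3, the defining Treg factor, was at 11.43, 11.46 and 12.44 in treated mice, against 10.75, 9.95 and 11.07 in untreated mice. The 8 T cell and Treg markers averaged 11.58, 11.51 and 12.08 in treated mice, against 11.33, 10.70 and 11.82 in untreated mice, lowest in untreated replicate 2. Of these 8 markers, 7 differences were above 0, beside 58.5% of all genes. Among them 1, Foxp3, had an unadjusted p under 0.05 (limma), where 1.82% of all genes were higher, while Il2ra was at -0.05 and Ikzf2 at 0.04. Cd3e lay between 11.62 and 12.16 on all arrays, but Cd3d was at 12.66, 12.04 and 12.61 in treated mice, against 12.33, 10.55 and 12.88 in untreated mice. The gap between 3′ and 5′ probe sets of beta-actin was 1.42, 1.94 and 3.62 in treated replicates, against 1.31, 1.95 and 0.92 in untreated ones, so the third replicates held both the widest and the narrowest gap. Rag1 itself was at 6.68, 5.23 and 4.93 in treated mice, against 7.61, 7.30 and 5.47 in untreated mice. Those groups overlap, and the sources used here do not say whether the probe set lies in the disrupted part. The B cell marker gap between the groups ran with the Rag1 genotype, RAG1o/o against RAG1+/o, as well as with the antibody. In such bulk samples, fewer cells of a type and less RNA per cell cannot be told apart. Which cells of a sample the marker transcripts came from was not measured.

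Among the first enzymes of the route, which make and activate mevalonate, no difference passed the test. Each interval ran from below 0 to above it, so like levels were not shown either. Hmgcs1, the synthase that makes HMG-CoA, had values of 12.09, 10.90 and 12.42 in treated mice, against 11.94, 11.58 and 11.72 in untreated mice. Treated replicate 2 lay below all other arrays and the other treated arrays above all untreated ones. The difference was 0.06 (95% interval -0.84 to 0.96). Mvk, the kinase that phosphorylates mevalonate, was at 6.89, 6.83 and 6.85 in treated mice, against 6.80, 6.73 and 6.86 in untreated mice, and all 6 arrays lay within a range of 0.16. Pmvk, which adds the next phosphate, had values of 9.04, 8.58 and 8.72 in treated mice and 8.79, 8.34 and 8.47 in untreated mice. That difference of 0.25 did not pass the test (unadjusted p = 0.262 and adjusted p = 0.916 in limma). Mvd, the decarboxylase that forms isopentenyl diphosphate, gave 0.05 (-0.48 to 0.57).

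Downstream, Idi1 turns isopentenyl diphosphate into its isomer. It had values of 10.29, 9.72 and 10.27 in treated mice, against 10.39, 10.45 and 10.45 in untreated mice. Every treated value was below every untreated one, by as little as 0.10 between the nearest pair, and the difference was -0.33 (-0.80 to 0.13). The test was not passed (limma, unadjusted p = 0.136, adjusted p = 0.914), and both probe sets of the gene had the same sign. Fdps, which joins isoprenoid units to farnesyl diphosphate, was at 7.39, 6.76 and 7.61 in treated mice, against 7.33, 6.55 and 7.50 in untreated mice, so the same spread appeared in both groups.

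The 10 enzymes from squalene to cholesterol split by sign, with 4 above 0 and 6 below. Fdft1 makes squalene and had the values 9.48, 9.82 and 10.12 in treated mice, against 9.23, 9.74 and 9.28 in untreated mice (difference 0.39, -0.16 to 0.93). Sqle, the epoxidase that adds oxygen to squalene and a rate-limiting step, was at 9.61, 8.21 and 9.98 in treated mice, against 9.63, 9.48 and 8.98 in untreated mice. Treated replicate 2 was again the lowest and treated replicate 3 the highest of the 6. Lss closes the ring to lanosterol and was at 8.40, 8.44 and 8.55 in treated mice, against 8.36, 8.09 and 8.29 in untreated mice. Here the groups did not overlap, with a difference of 0.22 (-0.15 to 0.59) that did not pass the test (limma, unadjusted p = 0.209), and another Lss probe set had the opposite sign.

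Cyp51 and Msmo1 remove methyl groups from lanosterol and its products. Cyp51 had values of 9.72, 8.58 and 9.48 in treated mice, against 9.58, 9.57 and 8.78 in untreated mice. Msmo1 had values of 8.42, 6.55 and 8.80 in treated mice, against 8.33, 8.07 and 8.57 in untreated mice. For Msmo1, treated replicate 2 was at -2.06 relative to the mean of the other treated arrays, while treated replicates 1 and 3 lay within or above the untreated range. The difference of -0.40 therefore had a wide interval (-1.70 to 0.89). Nsdhl and Hsd17b7, which act with Msmo1 in demethylation, differed by -0.33 (-0.90 to 0.25) and by -0.15 (-0.75 to 0.45). Hsd17b7 was low in treated replicate 2, at 9.35, whereas Nsdhl was low in treated replicate 3, at 9.21.

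The last steps held the largest positive difference among the 16 enzymes, that of Dhcr7. Ebp, a sterol isomerase, was at 10.59, 10.53 and 10.71 in treated mice, against 10.52, 9.85 and 11.19 in untreated mice, with the spread in the untreated group. Sc5d, a sterol desaturase, differed by -0.21 (-0.64 to 0.21). Dhcr7 reduces 7-dehydrocholesterol to cholesterol and was at 8.54, 8.59 and 10.03 in treated mice, against 8.32, 7.82 and 8.57 in untreated mice. Treated replicate 3 stood 1.45 above the next array, and its beta-actin gap between 3′ and 5′ probe sets was also the largest; the part of that in the result was not tested. The Dhcr7 difference was 0.82 (-0.18 to 1.82, limma unadjusted p = 0.095, adjusted p = 0.914).

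**Figure D3:**
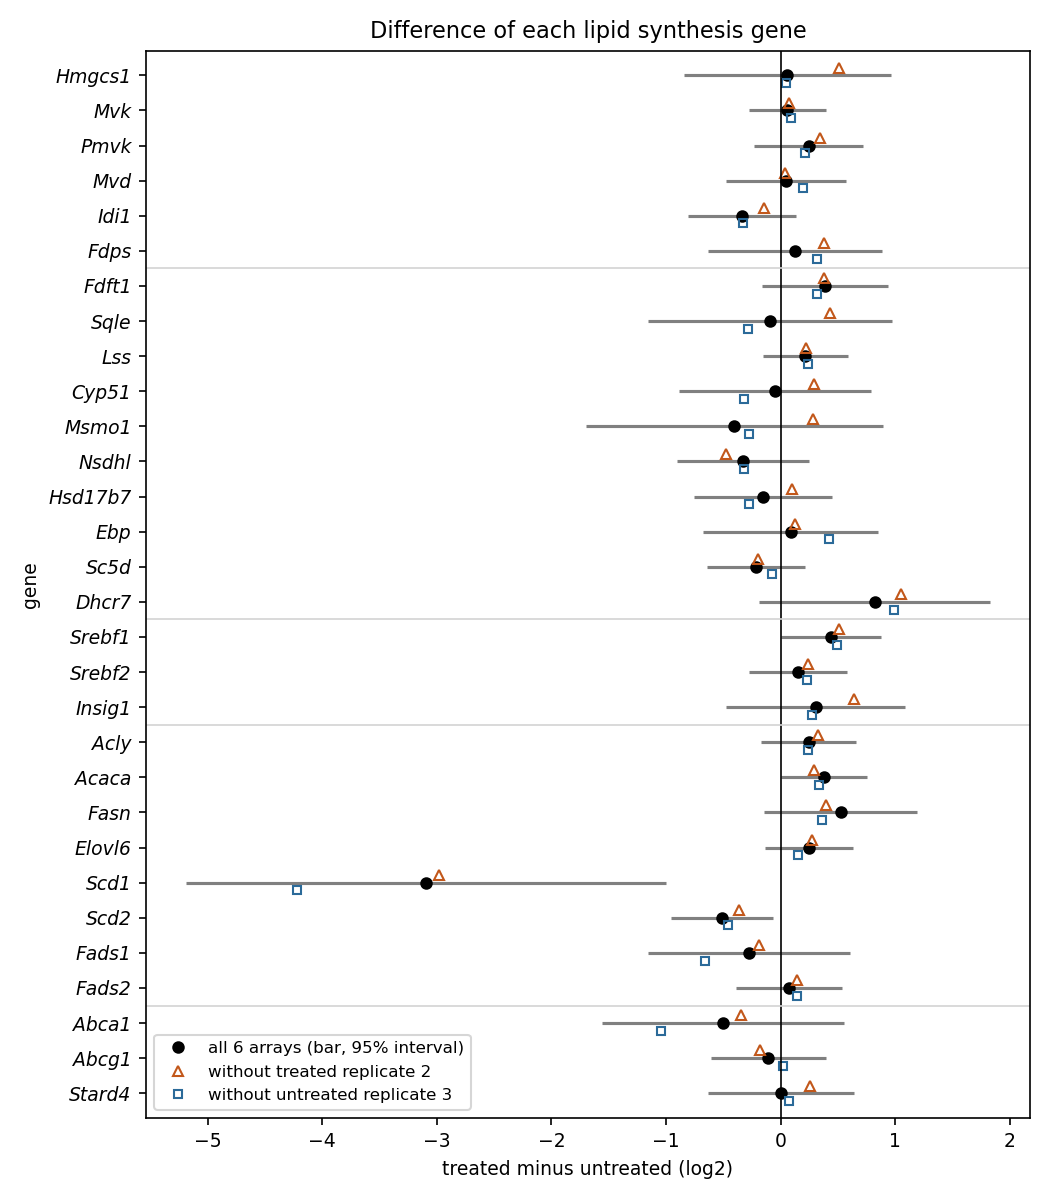
Treated minus untreated difference (log2) of each of the 30 genes, by role from top to bottom; black points and bars are the estimate and 95% interval from all 6 arrays, triangles the estimate without treated replicate 2, squares that without untreated replicate 3. Scd1 lies far to the left at -3.09 and at -4.22 without untreated replicate 3, while Msmo1, Sqle and Cyp51 cross 0 without treated replicate 2.

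Some sterol enzymes were far lower in treated replicate 2 than in the other treated mice, and others were not. The mean of the 16, each set against its own mean over the 6 arrays, was 0.12, -0.35 and 0.28 in treated replicates, against 0.04, -0.13 and 0.04 in untreated replicates. Relative to the mean of the other treated arrays, treated replicate 2 was at -2.06 for Msmo1, -1.58 for Sqle, -1.36 for Hmgcs1 and -1.02 for Cyp51. For 13 of the 16 enzymes this gap was below 0, while for 3 it was above, at 0.45 for Nsdhl, 0.02 for Mvd and 0.02 for Fdft1. Lss and Mvk were near 0, at -0.03 and -0.04, with Mvk close to the limit for dim probe sets. The median over the 16 was -0.43 and over all 30 genes -0.27, against 0.06 over all genes and -0.14 over the 11088 genes at or above an intensity of 100 in a group. Over the 71 probe sets of the 30 genes, 22 were lowest on that array. These were 5 of 5 for Hmgcs1, 2 of 2 for Idi1 and 3 of 3 for Stard4, but 1 of 2 for Msmo1, 1 of 4 for Hsd17b7 and 0 of 4 for Fdft1. A count of genes does not set the route apart: treated replicate 2 was lowest for 10 of the 30 genes, beside 21.7% of all genes and 28.7% of those at or above that intensity. Untreated replicate 2 was instead the lowest for Mvk, Pmvk, Mvd, Fdps, Lss, Ebp, Dhcr7, Srebf1, Srebf2, Acly and Fads2. With quantile normalization the mean of treated replicate 2 for the 16 enzymes was -0.16. Its mean for the cell division genes was also low, at -0.77, and their median gap to the other treated arrays was -0.45. That median gap was -1.04 for the myeloid, -0.60 for the erythroid and -0.34 for the T cell and Treg markers. For B cell, NK cell and stromal markers it was 0.15, 0.03 and -0.004. The part of any of these lists in the result was not tested.

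Without treated replicate 2, the median difference was 0.26 for the 16 sterol enzymes and 0.25 for the 30 genes, against 0.003 over all genes. The difference of Hmgcs1 was then 0.51 (0.06 to 0.97, limma unadjusted p = 0.033, adjusted p = 0.839), and that of Insig1 0.64 (0.02 to 1.26, unadjusted p = 0.044, adjusted p = 0.839). Without treated replicate 3 instead, they were -0.25 and -0.0475. Neither passed the adjusted threshold, and leaving out treated replicate 2 also changed the sign of Sqle, Cyp51, Msmo1 and Hsd17b7.

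Srebf1, Srebf2 and Insig1 set the output of the route. Srebf1, the factor of fatty acid genes, had values of 8.48, 8.44 and 8.83 in treated mice, against 8.24, 7.94 and 8.25 in untreated mice. The groups did not overlap, and the difference was 0.44 (0.005 to 0.875, limma unadjusted p = 0.048, adjusted p = 0.914). Srebf2, the factor of the sterol genes, was at 8.57, 8.41 and 8.80 in treated mice, against 8.48, 8.24 and 8.60 in untreated mice, with overlap. Insig1, which holds the Srebf proteins back and is itself one of their targets, had values of 8.18, 7.56 and 8.93 in treated mice, against 7.87, 8.01 and 7.86 in untreated mice. Its untreated values spanned 0.15, while treated replicate 2 was the lowest and treated replicate 3 the highest array. The Insig1 difference over all arrays was 0.31 (-0.47 to 1.09, limma unadjusted p = 0.384).

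**Figure D4:**
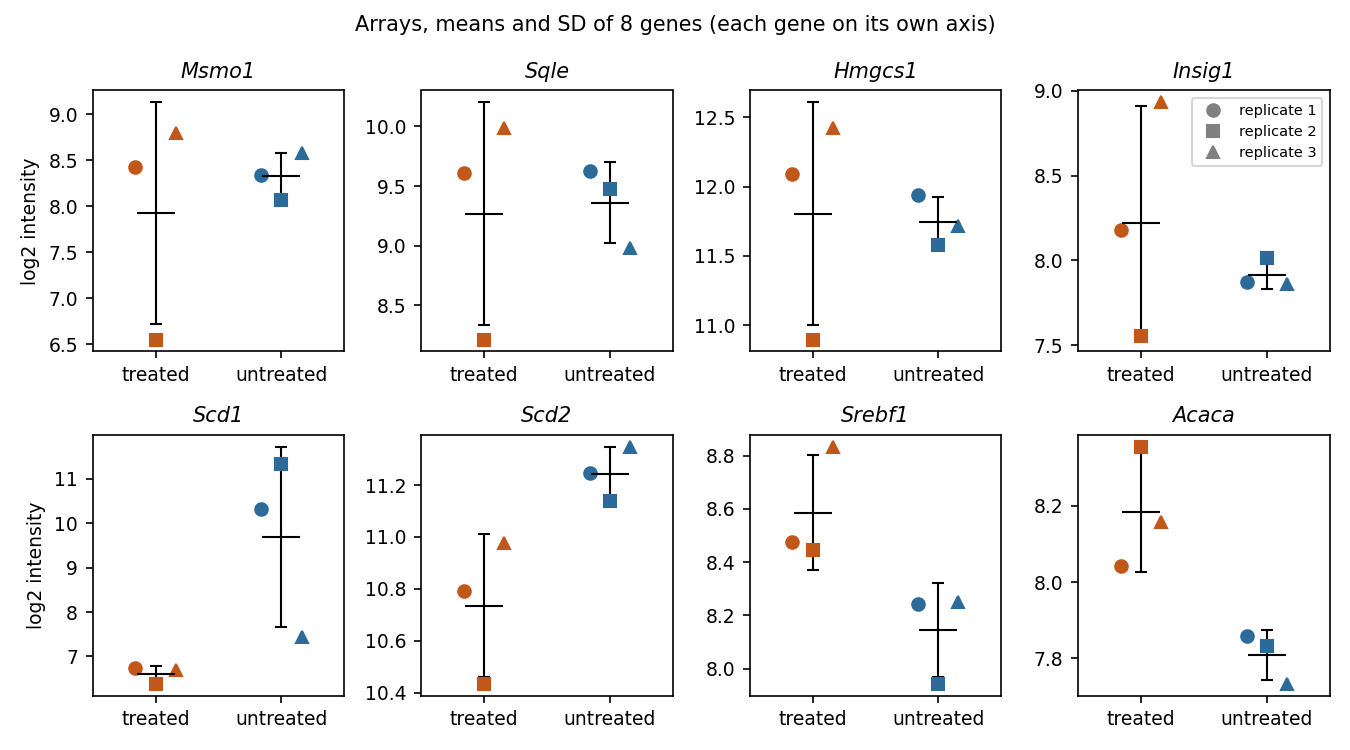
Log2 intensity of 8 genes on each array, treated left of untreated in each panel; symbols mark the replicate number, and the line and bar are the group's mean and SD (n = 3). Treated replicate 2 (square) is lowest for Msmo1, Sqle, Hmgcs1 and Insig1, and the groups do not overlap for Scd1, Scd2, Srebf1 and Acaca.

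Of the 8 fatty acid enzymes, 5 had differences above 0 (Acly, Acaca, Fasn, Elovl6 and Fads2) and 3 below (Scd1, Scd2 and Fads1). Acly, which splits citrate to give cytosolic acetyl-CoA, was at 12.60, 12.53 and 12.98 in treated mice, against 12.50, 12.43 and 12.44 in untreated mice. Acaca, the carboxylase that makes malonyl-CoA and commits carbon to fatty acids, had values of 8.04, 8.36 and 8.16 in treated mice, against 7.86, 7.83 and 7.73 in untreated mice. Neither gene's groups overlapped on the probe set used. For Acly, the next brightest probe set gave 0.13 with overlapping groups, and the dimmer ones gave -0.30, -0.15, 0.19 and 0.03. The mean of the Acly probe sets gave 0.02. The Acaca difference of 0.38 (0.004 to 0.751) had an unadjusted p of 0.048 and an adjusted p of 0.914 in limma, and the second Acaca probe set gave -0.004. Fasn, the synthase of palmitate, was at 8.60, 9.42 and 9.46 in treated mice, against 8.69, 8.90 and 8.31 in untreated mice. Treated replicate 1 lay among the untreated arrays, and the difference was 0.53 (-0.14 to 1.20, limma unadjusted p = 0.107). Elovl6, which lengthens palmitate, differed by 0.25 (-0.13 to 0.63) with no overlap.

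Scd1 had the largest difference of the 30 genes. Scd1 and Scd2 encode stearoyl-CoA desaturases, which place the first double bond in saturated chains. Scd1 had values of 6.74, 6.39 and 6.69 in treated mice, against 10.33, 11.33 and 7.43 in untreated mice. All treated arrays lay below all untreated ones, close to the intensity of 100 used as a limit for dim probe sets, but the untreated arrays were far apart, with replicate 3 at -3.39 relative to the mean of the other untreated ones. The difference was -3.09 (-5.19 to -0.996), or 8.52-fold lower in the treated samples. It did not pass after adjustment (limma, unadjusted p = 0.010, adjusted p = 0.914). The second Scd1 probe set was dim and differed by -0.42.

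The result for Scd1 turned on untreated replicate 3. Without it the difference was -4.22 (-5.01 to -3.44) and passed the test (limma, adjusted p = 0.0104), in a fit in which 1 gene was higher and 31 were lower among all genes. The numbers in the array labels fall into 2 ranges, the first with replicates 1 and 2 of each group and the second with replicate 3 of each, and no source used here says what the ranges stand for. Scd1 differed by -4.26 in the first (limma, adjusted p = 0.0344) and by -0.74 in the second, which holds 1 array per group. Of the 10 B cell markers, 9 were also lower in untreated replicate 3 than in untreated replicates 1 and 2, and their summed intensity was 9.89 to 10.07 on the log2 scale in treated replicates, against 14.37, 14.72 and 10.93 in untreated replicates. Of these markers Jchain was at 5.73, 5.83 and 5.61 in treated mice, against 12.50, 13.43 and 7.04 in untreated mice, and Ms4a1 at 6.50, 6.66 and 6.30 in treated mice, against 12.95, 12.93 and 8.97 in untreated mice. Among these markers, 5 had replicate 1 above replicate 2 of the untreated group, the reverse of Scd1, and 5 had replicate 2 above replicate 1. The summed myeloid markers were at 15.14, 14.29 and 14.87 in treated mice, against 14.72, 15.001 and 13.53 in untreated mice. The part of either list in the Scd1 result was not tested.

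**Figure D5:**
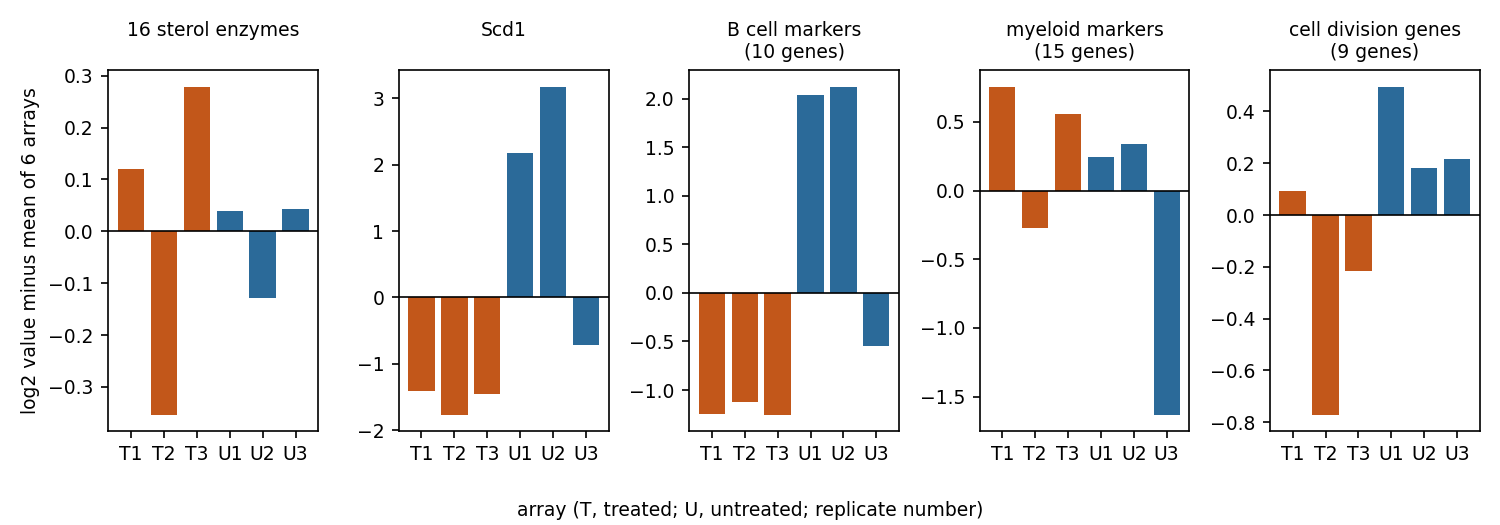
Log2 value minus the mean of the 6 arrays, for the mean of the 16 sterol enzymes, Scd1, and the means of B cell markers, myeloid markers and cell division genes, each panel on its own axis; T and U with a number are treated and untreated replicates. The Scd1 and B cell marker panels share their high bars, U1 and U2, and treated replicate 2 is lowest for the sterol enzymes and for the cell division genes.

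Scd2, the desaturase that was also lower in every treated array, had values of 10.79, 10.43 and 10.98 in treated mice, against 11.25, 11.14 and 11.35 in untreated mice. Unlike Scd1, its untreated values spanned 0.21, and replicate 3 was the highest. The difference was -0.51 (-0.96 to -0.06), or 1.42-fold lower (limma, unadjusted p = 0.030, adjusted p = 0.914), and the other 2 Scd2 probe sets gave -0.73 and -0.20. In the first label range it was -0.58 and in the second -0.37. Fads1 and Fads2, the desaturases of polyunsaturated fatty acids, differed by -0.28 (-1.16 to 0.61) and by 0.08 (-0.39 to 0.54), with overlapping groups. The Fads2 values lay close to the limit for dim probe sets. Over the 8 fatty acid enzymes the median difference was 0.16 and the mean -0.30, so that these differ in sign.

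Abca1, Abcg1 and Stard4 move cholesterol out of or within the cell. Abca1 loads cholesterol onto lipoproteins and is an LXR target. It had values of 8.04, 7.49 and 7.89 in treated mice, against 8.78, 8.92 and 7.22 in untreated mice. Both of the first untreated arrays were above, and the last was below, every treated one. The difference was -0.50 (-1.56 to 0.56), and without untreated replicate 3 it was -1.05 (-1.61 to -0.48, limma unadjusted p = 0.004, adjusted p = 0.480). Untreated replicate 3 was the lowest array for 5 of the 30 genes (Acaca, Fasn, Elovl6, Fads1 and Abca1), beside 13.3% of all genes, and for the myeloid markers noted above, whose part in the Abca1 values was not tested. Abcg1, which exports cholesterol to larger particles, differed by -0.11 (-0.61 to 0.40). Stard4, a sterol carrier, was at 10.45, 9.53 and 10.13 in treated mice, against 10.19, 9.74 and 10.18 in untreated mice, and its difference was 0.004.

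Beside the 30, a list of 50 other genes of lipid metabolism was counted, of which 42 were measured under a single symbol. Of these, 16 differences were above 0 and 26 below, beside 58.5% of all genes above 0. The median was -0.06, against 0.05 over all genes. The share of 58.5% is also the background for the sign counts of the separate lists that follow. By limma 0 of the 42 passed the adjusted threshold. At an unadjusted p under 0.05 the higher ones numbered 1 and the lower ones 4 of 42, beside 1.82% and 3.17% of all genes. The 5 measured of 8 other isoprenoid and sterol enzymes were all below 0. Those with the smallest p among them were Coq2, a ubiquinone enzyme, at -0.28, Tm7sf2, a sterol reductase, at -0.20, and Ggps1, which makes geranylgeranyl diphosphate, at -0.28.

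Among 8 measured genes of sterol sensing, 7 were below 0, with a median of -0.27 that became 0.17 without treated replicate 2. Insig2, the partner of Insig1, was at 9.92, 9.40 and 9.71 in treated mice, against 10.40, 10.27 and 10.19 in untreated mice. The groups did not overlap (difference -0.61, -1.05 to -0.17, limma unadjusted p = 0.013, adjusted p = 0.914). Rnf145, a sterol-responsive ubiquitin ligase, was also lower in every treated array, at -0.57 (-1.17 to 0.03). Mbtps2, a protease that releases Srebf proteins, differed by -0.67 (-1.83 to 0.50) with overlap.

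Of 16 other fatty acid genes, 6 were above 0 and 10 below. Acsl3 and Acsl4 join fatty acids to coenzyme A, and Acsl4 prefers polyunsaturated ones. Acsl3 had values of 6.38, 6.34 and 5.89 in treated mice, against 6.996, 7.25 and 6.78 in untreated mice (difference -0.80, -1.30 to -0.31, limma unadjusted p = 0.006, adjusted p = 0.914). Acsl4 had values of 9.70, 8.83 and 9.21 in treated mice, against 10.10, 10.80 and 9.72 in untreated mice (difference -0.96, -1.75 to -0.18, limma unadjusted p = 0.023, adjusted p = 0.914). In neither did the groups overlap. Hsd17b12, which takes part in chain elongation, was at -0.35 (-0.94 to 0.24).

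The 5 other LXR and efflux genes measured divided, 3 above 0 and 2 below. Abca7, a lipid transporter related to Abca1, was at 9.07, 9.19 and 10.50 in treated mice, against 8.66, 8.22 and 8.87 in untreated mice (difference 1.01, 0.07 to 1.94, limma unadjusted p = 0.038, adjusted p = 0.914). As with Dhcr7, treated replicate 3 stood above the rest. Mylip, an LXR-induced ubiquitin ligase, was at 11.04, 11.19 and 10.84 in treated mice, against 11.41, 12.08 and 11.37 in untreated mice (difference -0.59, -1.15 to -0.04). Nr1h3, which encodes an LXR receptor, differed by 0.25 (-0.14 to 0.65). Of 8 genes of cholesterol storage and trafficking, 6 were above 0, and the named ones were Vldlr, a lipoprotein receptor, at 0.29, Npc2, which carries cholesterol out of lysosomes, at 0.15, and Osbp, an oxysterol-binding protein, at -0.12.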

How the data were processed

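RNA of sorted splenic Tregs from 6 mice, 1 per array, was amplified in a pair of rounds and hybridised to Affymetrix M430v2 arrays, per the labels' protocols. The authors processed the arrays with RMA, per the submitters' processing notes and design text (version not given in the sources used here), and the deposited intensity values are linear. They ran from 5.47 to 29584.9, with array medians of 85.3 to 92.4. They were taken to log2 here without a pseudocount or further normalization. RMA makes arrays alike, so a change shared by most transcripts cannot be seen, and amplification can strengthen 3′ bias.

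Of 45101 probe sets, 64 controls were left out. Symbols came from the platform annotation, updated through gene identifiers for 34741 of the 34945 probe sets with 1 symbol, and 932 probe sets with several symbols named no gene. Each of 18193 genes was read from its probe set of highest mean. The 30 genes had 71 probe sets; 12 of the 30 had another of opposite sign (Abca1, Abcg1, Acaca, Acly, Cyp51, Fads1, Fads2, Hmgcs1, Lss, Msmo1, Sc5d and Stard4), and 5 (Mvd, Fdft1, Lss, Hsd17b7 and Acly) were read by probe sets that may share sequence with other genes. Groups were compared with limma 3.58.1 (lmFit, eBayes; R 4.3.3) over 45037 probe sets, 2-sided, with Benjamini-Hochberg adjustment over genes and a threshold of 0.05. The fit was also run on simulated data with known differences and independent noise. No effect shared by the genes of an array was simulated, so that run cannot speak to arrays that stand apart. Intervals are 95%. With 1 mouse per array, the p-values rest on differences among mice.

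The 30 genes and the other lists were chosen with earlier results of these data known. All 30 were to be described, with up to 3 genes of smallest p per list of other pathway genes. Figures were drawn with matplotlib.

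Alternatives were the replicate number as a block, the range of array label numbers as a covariate, its first range alone, and age as a covariate. Others were quantile normalization, median centring, averaging the probe sets of a gene, no dim probe sets (under 100 in both groups), array weights, a trend and robust fit in eBayes, leaving out each array, and ratios of linear means.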

Additional observations from a re-analysis of the deposited data

How the results depend on the processing

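Of the 30 genes, 17 kept the sign of their difference under all 17 alternatives that gave a value and 13 changed it under at least 1. Some of these alternatives could not change a sign, since they left the estimates of the 30 genes as they were. These were the replicate block, the label range as a covariate, the trend and robust fit, and the removal of dim probe sets. Deviations of same-numbered arrays correlated at 0.51, 0.010 and 0.10 for replicates 1 to 3, against -0.47 to 0.23 for arrays of different numbers. The value of replicate 1 lay above that range and those of replicates 2 and 3 within it, so these values cannot decide whether replicates were paired. With the replicate block 2 of the 30 genes were higher and 2 lower at an unadjusted p under 0.05, as without it. Acaca was no longer among them, and Dhcr7, with a difference of 0.82, was. The number higher at that threshold was 0 with the first label range alone, without dim probe sets and with trend and robust, and 1 with age, quantile normalization, median centring, averaged probe sets and array weights. The number lower was 1 with age and with trend and robust. At the adjusted threshold 1 of the 30, Scd1, was lower with the first label range alone. Leaving out 1 array gave 0 to 3 higher and 1 to 2 lower at the unadjusted threshold and 0 to 1 lower at the adjusted one, and medians of -0.0491 to 0.25 over the 30 genes, -0.0756 to 0.26 over the sterol enzymes and 0.11 to 0.21 over the fatty acid enzymes. Other pathway genes higher at the unadjusted threshold were 0 with median centring and array weights and 0 to 1 without 1 array, and those lower were 2 to 5 without 1 array and 6 with averaged probe sets.

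Signs turned as follows, and the cause was not tested. With the first label range alone, Hmgcs1 was at -0.26, Insig1 at -0.0759 and Tm7sf2 at 0.0527. With age, Sqle was at 0.0193, Stard4 at -0.0109 and Osbp at 0.00293. Quantile normalization put Cyp51 at 0.00821 and median centring put Stard4 at -0.0204. The mean of probe sets put Hmgcs1 at -0.0803, Cyp51 at 0.12 and Abcg1 at 0.13. Array weights, 0.242 for treated replicate 2, put Mvd at -0.0886, Sqle at 0.13, Cyp51 at 0.18, Msmo1 at 0.0474 and Hsd17b7 at 0.0524. Linear means put Sqle at 0.0574 and Ebp at -0.0111.

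Without 1 array at a time, the range was -0.25 to 0.51 for Hmgcs1, -0.14 to 0.20 for Mvd, -0.16 to 0.38 for Fdps, -0.45 to 0.44 for Sqle, -0.32 to 0.29 for Cyp51, -0.84 to 0.29 for Msmo1, -0.31 to 0.10 for Hsd17b7 and -0.25 to 0.43 for Ebp. It was -0.0475 to 0.64 for Insig1, -0.66 to 0.0736 for Fads1, -0.0584 to 0.15 for Fads2, -0.24 to 0.0486 for Abcg1, -0.20 to 0.26 for Stard4 and -4.22 to -2.27 for Scd1. The level of the fatty acid enzymes was -0.0678 in treated replicate 1 with the mean of probe sets, against -0.15. In treated replicate 2 it was -0.0751 with quantile normalization, -0.31 with median centring and -0.0351 with the mean of probe sets, against -0.23.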
